A study of Mus musculus with 16 samples.

Results

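The EGR and NR4A transcription factor genes and 4 other immediate-early genes were followed in mouse bone marrow-derived macrophages (BMDMs), 10 genes chosen by name from the 55487 of the count table. The members were Egr1, Egr2, Egr3, Nr4a1, Nr4a2, Nr4a3, Ier2, Ier3, Ier5 and Myc, found by matching the Ensembl identifiers of the table to gene symbols, and all 10 were among the 12372 genes tested. Immediate-early genes are transcribed within minutes of a stimulus, without new protein synthesis, by factors that already wait in the cell, such as SRF with its ternary complex partners, CREB and NF-κB. Their transcripts are short-lived, so their levels usually rise and fall quickly. In macrophages they answer growth factors, cytokines and microbial products, and many of them encode the transcription factors of a later wave of expression. The EGR proteins are zinc finger activators held back by the NAB corepressors, the NR4A proteins are orphan nuclear receptors that act without a known natural ligand, and MYC binds DNA as a dimer with MAX.

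The study asked how tumor-derived factors and JAK inhibition together change macrophages. BMDMs from 8-week-old wild-type Balb/c mice were serum-starved and given DMEM or conditioned media (CM) of 4T1 cells, a mouse mammary tumor line. Ruxolitinib (Rux), an inhibitor of JAK1 and JAK2, was used at 0.5 µM in CM. For cells given CM it was already added during the 2 h of serum starvation before CM. IKK-16, an inhibitor of the IKK kinases that activate NF-κB, was used at 0.8 µM and given with ruxolitinib and CM. The 16 samples of RNA sequencing formed 6 groups, namely DMEM (n = 2), DMEM + Rux (n = 3), CM (n = 3), CM + Rux 2 h (n = 2), CM + Rux 4 h (n = 3) and CM + Rux + IKK-16 (n = 3). The labels give a time only for the CM + Rux groups, the methods describe a treatment of 4 h, and what the label of 2 h counts from is not given in the sources used here. The dose of ruxolitinib in DMEM is not given there either. IKK-16 was never given without ruxolitinib, so its values hold for ruxolitinib-treated cells. No source says whether replicates came from separate mice or cultures, so p-values measure the spread between these samples, which may be technical.

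Between 18449388 and 46215853 fragments were counted on genes in each sample. Of 8 macrophage markers all 8 were detected in every group, with a summed level of 40282 to 57216 CPM (counts scaled to library depth). Single markers differed between groups. On the log2 scale Cd14 (2.68) and Itgam (0.99) were higher and Csf1r (-0.61) was lower in CM than in DMEM. Mertk was lower in CM + Rux 4 h than in CM (-1.71). Epithelial markers, which would show RNA of the tumor cells, summed to 0 to 1.45 CPM over all samples, with Cdh1, Epcam and 4 keratins on the list. They lay at 0 to 0.118 CPM in DMEM, 0.0447 to 0.232 CPM in DMEM + Rux and 0.691 to 1.45 CPM in CM. In the other groups with CM they lay at 0.121 to 0.836 CPM. Neutrophil markers summed to 0 to 0.0927 CPM in the DMEM groups and to 0.0276 to 0.816 CPM in the groups with CM. T cell markers summed to 0 to 0.0553 CPM. B cell markers lay at 1.07 to 1.23 CPM in the DMEM groups and at 0.122 to 0.747 CPM in the groups with CM. Cd79b, the only B cell marker with enough counts to be tested, was lower in CM than in DMEM, with -2.95 on the log2 scale. Fibroblast markers lay at 5.56 to 20 CPM. The 4 dendritic cell markers summed to 0.788 to 2.28 CPM except in the 2 h group, where they reached 8.54 to 12.7 CPM. Zbtb46 was the only 1 of these 4 with enough counts to be tested and was higher at 2 h than at 4 h by 2.41 on the log2 scale. The part of this difference in the results of the 2 h group was not tested. In RNA of whole cultures, fewer cells of a kind and less RNA per cell cannot be told apart.

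Promoter sequences were looked up for the members as a description only. RefSeq promoters (GRCm38.p6, from 250 bases before to 50 bases after a start site) were matched for 6 of the 10 members, namely Egr2, Nr4a1, Nr4a2, Nr4a3, Ier3 and Ier5. Each of the 3 NR4A promoters held 4 copies of TGACG, the core of the cAMP response element, which is bound by CREB and its relatives. Of 32851 RefSeq promoters 20.8% held at least 1 copy on either strand and 0.231% held at least 4. Egr2 held 2 copies in each of 3 overlapping windows, where 5.01% of promoters held at least 2, and the windows of Ier3 and Ier5 held 0. The NR4A stretches that hold all 4 copies follow, 5′ to 3′ along the gene, with these cores in capitals (CGTCA is TGACG on the other strand).
Nr4a1, chr15:101266601-101266822, plus strand: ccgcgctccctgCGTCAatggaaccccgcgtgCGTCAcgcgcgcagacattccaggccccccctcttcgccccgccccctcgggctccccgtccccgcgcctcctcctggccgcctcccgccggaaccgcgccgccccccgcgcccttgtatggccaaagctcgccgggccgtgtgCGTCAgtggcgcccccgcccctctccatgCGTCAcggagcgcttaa
Nr4a2, chr2:57124098-57124215, minus strand: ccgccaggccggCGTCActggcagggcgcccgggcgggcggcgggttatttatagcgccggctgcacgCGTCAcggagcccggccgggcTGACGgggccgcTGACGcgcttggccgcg
Nr4a3, chr4:48045062-48045174, plus strand: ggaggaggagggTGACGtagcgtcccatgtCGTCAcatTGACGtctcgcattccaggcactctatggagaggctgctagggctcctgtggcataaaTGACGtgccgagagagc
The copies lay between 233 and 36 bases before the start site in Nr4a1, between 200 and 107 in Nr4a2 and between 231 and 143 in Nr4a3.

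A κB site, the sequence read by NF-κB, was found on the reverse strand in the promoters of Nr4a1 and Ier3, and 4.51% of all promoters held one. It ran from 3 bases before to 6 bases after the start site in Nr4a1 and from 92 to 83 bases before it in Ier3. These 2 sites are shown in capitals, since IKK-16 blocks the kinases upstream of NF-κB.
Nr4a1, chr15:101266831-101266860, plus strand: tcgggctcgccaGGGGAGCCCCagtgcagg
Ier3, chr17:35821606-35821645, plus strand: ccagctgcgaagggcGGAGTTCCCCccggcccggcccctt
Egr2 has 5 annotated start sites, and 4 of their windows held a CArG box, the sequence read by SRF, at 2 positions. A CArG box was in 1.63% of all promoters. Both boxes are shown in capitals.
Egr2 upstream box, chr10:67537479-67537518, plus strand: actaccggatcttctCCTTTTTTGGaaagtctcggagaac
Egr2 downstream box, chr10:67537782-67537821, plus strand: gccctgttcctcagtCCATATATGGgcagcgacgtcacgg
The promoter of Nr4a1 also held an EGR site (GCGGGGGCG or GCGTGGGCG, in 3.47% of promoters), and 1 window of Egr2 held an E-box (CACGTG, in 7.15%), the sequence read by MYC and MAX. The full cAMP response element (TGACGTCA), the STAT site TTCNNNGAA and the NR4A site AAAGGTCA were not found in the windows of these 6 members on either strand, and 1.79%, 8.3% and 1.51% of promoters held them. The core is part of the full element, and the other motifs were counted without regard to overlap. A match describes the letters only and was not tested as a binding site.

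The values of all members in the 16 samples are plotted by group.

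**Figure D1:**
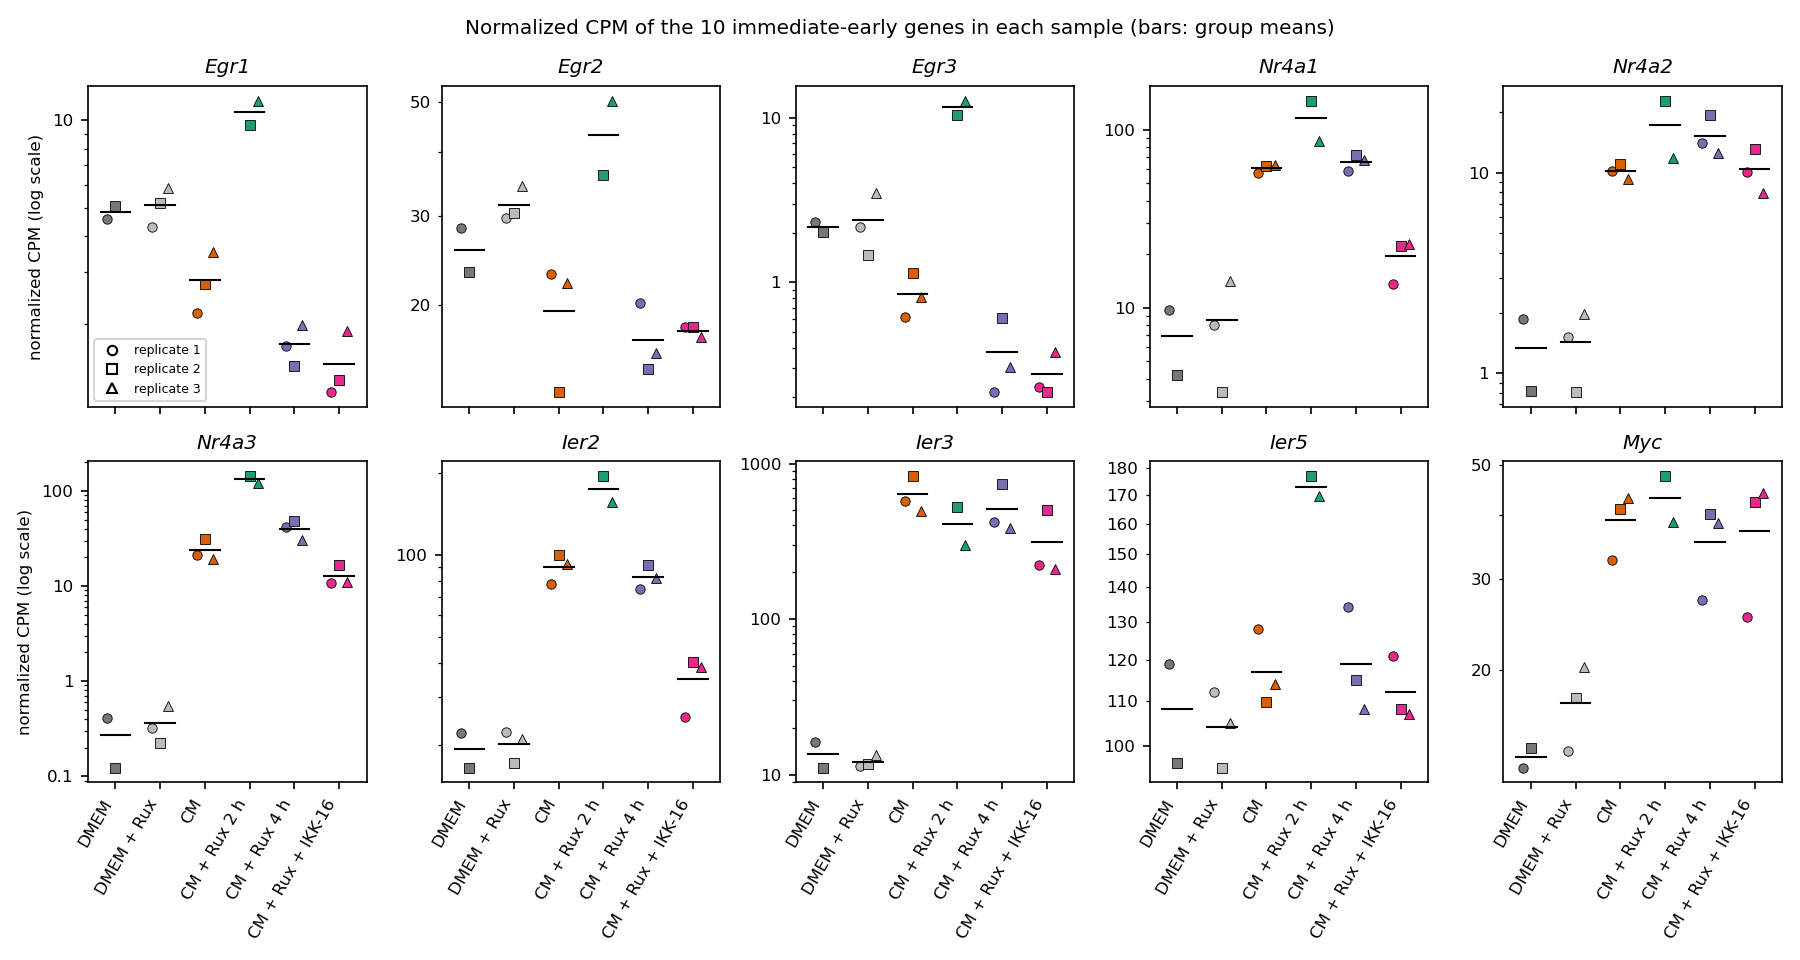
Normalized CPM of each member (y axis, log scale, a separate range in each panel) in the 6 groups (x axis). Each point is 1 sample, its shape gives the replicate number and the bar is the group mean. The 2 samples of CM + Rux 2 h lie above all other samples for Egr1, Egr2, Egr3, Nr4a1, Nr4a3, Ier2 and Ier5, while Ier3 is highest in CM.

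The EGR genes were at their highest in the 2 h group and had their lowest means in CM + Rux 4 h or with IKK-16. Egr3 had 2.31 and 2.01 CPM in DMEM, 2.17, 1.47 and 3.5 CPM in DMEM + Rux and 0.612, 1.13 and 0.815 CPM in CM. It had 10.4 and 12.7 CPM in CM + Rux 2 h, 0.216, 0.606 and 0.305 CPM in CM + Rux 4 h, and 0.232, 0.214 and 0.379 CPM with IKK-16. All samples with CM at 4 h or without a time label thus lay below all samples in DMEM, and both 2 h samples lay above them. The lowest values rest on few fragments, 6 to 25 per sample in CM + Rux 4 h. The order of the group means was the 2 h group, DMEM + Rux, DMEM, CM, CM + Rux 4 h and CM + Rux + IKK-16, and the samples overlapped between the DMEM groups and between the last 2 groups.

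Egr1 had 4.58 and 5.08 CPM in DMEM, 4.29, 5.2 and 5.86 CPM in DMEM + Rux, and 2.17, 2.73 and 3.54 CPM in CM. In CM + Rux 2 h it had 9.67 and 11.7 CPM, in CM + Rux 4 h 1.67, 1.43 and 1.98 CPM, and with IKK-16 1.16, 1.28 and 1.89 CPM. The order of its groups was that of Egr3, again with overlap only between the DMEM groups and between the last 2 groups. Egr2, a regulator of macrophage differentiation, was the most abundant of the 3, with 28.3 and 23.2 CPM in DMEM, 29.6, 30.3 and 34.2 CPM in DMEM + Rux and 23, 13.5 and 22.1 CPM in CM. It had 36 and 50.4 CPM in CM + Rux 2 h, 20.2, 15 and 16.1 CPM in CM + Rux 4 h and 18.1, 18.1 and 17.3 CPM with IKK-16. Its CM, CM + Rux 4 h and IKK-16 samples overlapped, and its range between groups was the narrowest of the family. Divided by exonic length, the mean level in the 2 h group was 12.7 ± 2.98 CPM per kb (SD, n = 2) for Egr2, 2.62 ± 0.359 for Egr3 and 2.38 ± 0.319 for Egr1, the last 2 being closer to each other than their spread.

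The NR4A genes were low in DMEM and had higher means in every group with CM. Nr4a3 had 0.414 and 0.123 CPM in DMEM, from 14 and 3 fragments, and 0.323, 0.223 and 0.55 CPM in DMEM + Rux. It had 21, 31.2 and 19.3 CPM in CM, 144 and 121 CPM in CM + Rux 2 h, 41.7, 48 and 30.1 CPM in CM + Rux 4 h and 10.8, 16.7 and 10.9 CPM with IKK-16. The 2 h samples stood above all others, and the IKK-16 samples stood below those of CM and of CM + Rux 4 h but far above DMEM. Nr4a1, the receptor also called NUR77, had 9.75 and 4.22 CPM in DMEM, 8.04, 3.35 and 14.2 CPM in DMEM + Rux and 56.9, 62.6 and 63.3 CPM in CM. It had 146 and 86.5 CPM in CM + Rux 2 h, 58.8, 71.9 and 67.5 CPM in CM + Rux 4 h and 13.6, 22.2 and 22.8 CPM with IKK-16. The lowest IKK-16 sample lay at 13.6 CPM, below the highest DMEM + Rux sample at 14.2 CPM.

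Nr4a2 varied less among the CM groups. It had 1.86 and 0.819 CPM in DMEM, 1.52, 0.804 and 1.98 CPM in DMEM + Rux, 10.2, 11 and 9.29 CPM in CM, 22.9 and 11.8 CPM in CM + Rux 2 h, 14, 19.4 and 12.6 CPM in CM + Rux 4 h and 10.1, 13.2 and 7.95 CPM with IKK-16. Its 2 h and 4 h samples overlapped, as did those of CM and IKK-16. Per kb of exon the NR4A genes in CM ran from Nr4a1 at 17.4 ± 1 CPM (SD, n = 3) over Nr4a3 at 3.98 ± 1.08 to Nr4a2 at 2.5 ± 0.207. In the 2 h group Nr4a1 had 33.1 ± 12 and Nr4a3 22.2 ± 2.72 CPM per kb (SD, n = 2), a gap smaller than the spread of Nr4a1.

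Ier3 reached the highest level of the members. Its product, known as IEX-1, takes part in the control of cell death. Ier3 had 16.2 and 11.1 CPM in DMEM, 11.3, 11.7 and 13.3 CPM in DMEM + Rux and 577, 834 and 498 CPM in CM. It had 522 and 298 CPM in CM + Rux 2 h, 423, 738 and 383 CPM in CM + Rux 4 h and 224, 503 and 210.4 CPM with IKK-16. In each of the 4 groups with CM the highest sample was replicate 2, so that all 4 groups overlapped with a neighbor. Per kb of exon its level in CM was 563 ± 155 CPM (SD, n = 3), above Ier2 at 59 ± 7.22 and Ier5 at 35.8 ± 2.86.

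Ier2, which encodes a nuclear protein, had 22.1 and 16.5 CPM in DMEM, 22.4, 17.2 and 21 CPM in DMEM + Rux and 77.9, 99.5 and 92.2 CPM in CM. It had 195 and 156 CPM in CM + Rux 2 h, 74.9, 91.9 and 82.3 CPM in CM + Rux 4 h and 25.4, 40.3 and 38.7 CPM with IKK-16. The IKK-16 samples lay between those of DMEM and those of CM without touching either. Ier5, whose product binds the phosphatase PP2A, was expressed without CM and moved least. Its samples spanned 96.5 to 119 CPM in DMEM, 95.5 to 112 CPM in DMEM + Rux, 109.8 to 128 CPM in CM, 108 to 134 CPM in CM + Rux 4 h and 107 to 121 CPM with IKK-16, all overlapping. Only the 2 h samples, at 177 and 169.6 CPM, stood apart.

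Myc had 12.9 and 14.1 CPM in DMEM, 13.9, 17.6 and 20.2 CPM in DMEM + Rux and 32.7, 41 and 43.2 CPM in CM. It had 47.6 and 38.8 CPM in CM + Rux 2 h, 27.3, 40.2 and 38.5 CPM in CM + Rux 4 h and 25.3, 42.3 and 44 CPM with IKK-16. The 4 groups with CM overlapped with each other and lay above both DMEM groups. In DMEM the members ranked by mean CPM per kb from Ier5 at 32.9 over Ier2 at 12.7, Ier3 at 12.1, Egr2 at 7.57, Myc at 4.96, Nr4a1 at 1.99, Egr1 at 1.08, Egr3 at 0.489 and Nr4a2 at 0.33 to Nr4a3 at 0.0448. Of the neighbors in this order, Ier2 and Ier3, Nr4a1 and Egr1, and Egr3 and Nr4a2 differed by less than the sum of their SDs.

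With CM and ruxolitinib, the EGR genes, Nr4a3, Ier2 and Ier5 were higher at 2 h than at 4 h, and the other 4 members did not pass the test. Calls required an adjusted p below 0.05 together with a log2 fold change beyond 0.5 either way, with edgeR's quasi-likelihood test and Benjamini-Hochberg adjustment over all 12372 genes. Of the 10 members 6 were called higher and 0 lower, where 12.6% of all genes were called higher and 10.7% lower. The median log2 fold change of the members was 0.95, against -0.03 for all genes. Egr3 differed most, by 4.87 (standard error 0.40, adjusted p = 1.2e-06), a 29.2-fold higher level. Egr1 was higher by 2.67 (standard error 0.23, adjusted p = 1.9e-06) and Egr2 by 1.33 (standard error 0.20, adjusted p = 1.9e-04). Among the others, Nr4a3 was higher by 1.73 (adjusted p = 1.3e-04) and Ier2 by 1.08 (adjusted p = 5.6e-04). Ier5 was higher by 0.55 (adjusted p = 0.0017), close to the threshold, and its call was lost at 0.48 without CM + Rux 4 h replicate 3 and at 0.47 under total-count scaling. Without CM + Rux 4 h replicate 2, the difference of Egr3 grew to 5.50. Nr4a1 differed by 0.82 (standard error 0.41, adjusted p = 0.13) although its 2 h samples lay above all 4 h samples. It was called in a model of only these 2 groups, without the replicate block at 0.84 (adjusted p = 0.024) or with it at 0.73 (adjusted p = 0.0061), and without the filter on low counts (adjusted p = 0.013), but not with the block in the model of all groups (0.80, adjusted p = 0.1). Values for the others were 0.29 for Myc (adjusted p = 0.33), 0.19 for Nr4a2 (adjusted p = 0.68) and -0.33 for Ier3 (adjusted p = 0.53). The 2 h group has 2 samples and no replicate 1. No group in DMEM and no group without ruxolitinib has a label of 2 h. At 2 h, effects of CM and of ruxolitinib can thus not be told apart.

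Against DMEM + Rux, 9 members were called higher in CM + Rux 2 h and 0 lower, where 18.4% of all genes were called higher and 21.7% lower. In CM + Rux 4 h, 6 were called higher and 3 lower, where 22.3% were called higher and 25% lower. Both comparisons use the same DMEM + Rux samples, whose time is not in the labels. Egr1 and Egr3 were called on opposite sides of DMEM + Rux in the 2 CM + Rux groups, and Egr2 was called only at 4 h. Egr3 was higher by 2.29 (standard error 0.33, adjusted p = 5.0e-05) at 2 h and lower at 4 h, a change of -2.58 (standard error 0.39, adjusted p = 4.7e-05). Egr1 had a log2 fold change of 1.05 (adjusted p = 8.5e-04) at 2 h and of -1.62 (adjusted p = 1.4e-05) at 4 h. Egr2 had 0.46 (adjusted p = 0.064) at 2 h. Over the alternatives this value ranged from 0.09 to 0.68, the latter without CM + Rux 2 h replicate 2. At 4 h Egr2 was lower, with -0.87 (adjusted p = 7.4e-04).

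The NR4A genes, Ier2, Ier3 and Myc were called higher than in DMEM + Rux in both groups. Nr4a3 was higher by 8.54 (standard error 0.37, adjusted p = 8.6e-10) at 2 h and by 6.81 (standard error 0.36, adjusted p = 2.7e-09) at 4 h. Nr4a1 was higher by 3.79 and 2.97, or by 4.43 and 3.61 without DMEM + Rux replicate 3, and Nr4a2 by 3.66 and 3.47. Ier3 was higher by 5.08 and 5.41, Ier2 by 3.12 and 2.05 and Myc by 1.33 and 1.03, with adjusted p-values from 1.8e-08 to 6.2e-04 for these 3 genes. Ier5 was higher at 2 h by 0.74 (adjusted p = 6.9e-05), or by 0.37 without a call under total-count scaling, and had 0.19 (adjusted p = 0.11) at 4 h. Relative to total counts, scaling by relative log expression shifted the median gene by 0.37 in the 2 h comparison and by 0.3 in the 4 h comparison.

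**Figure D2:**
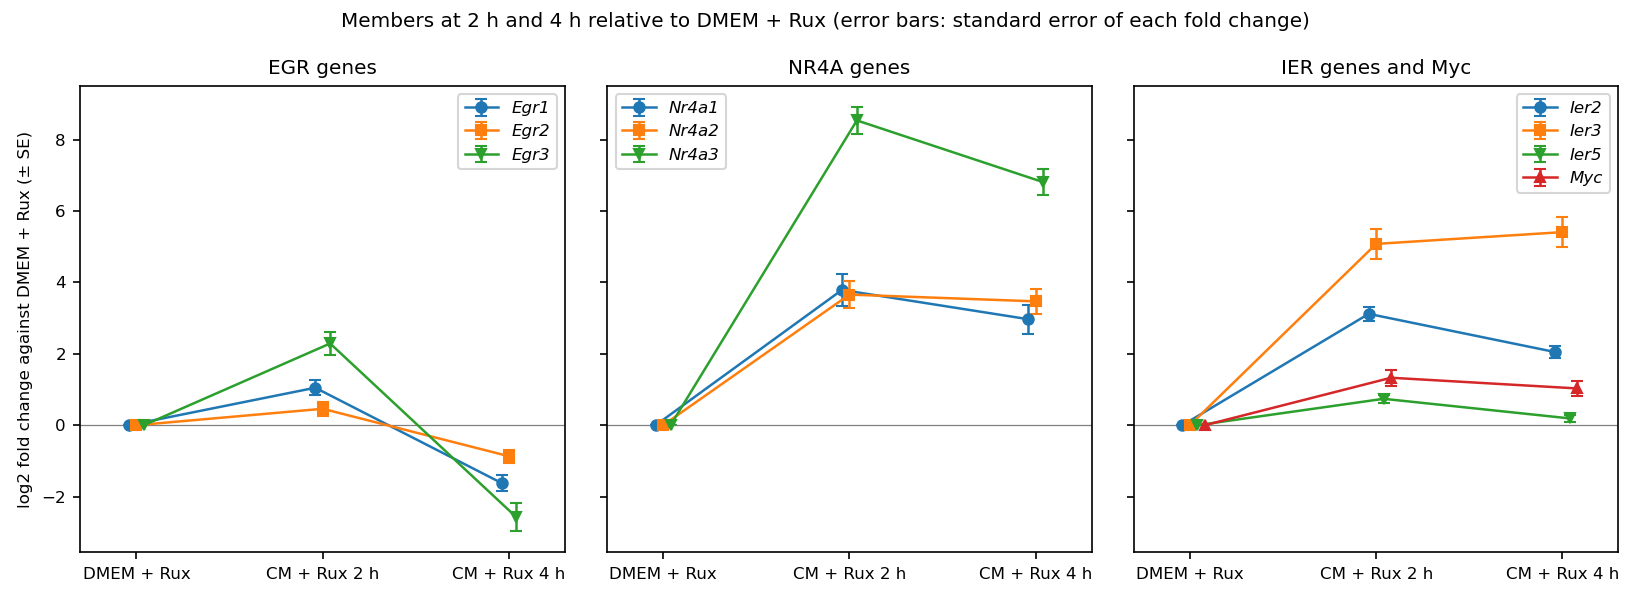
Log2 fold change against DMEM + Rux (y axis, set to 0 in that group) in CM + Rux 2 h and CM + Rux 4 h (x axis) for the EGR genes, the NR4A genes, and the IER genes with Myc. Points are fitted fold changes and bars their standard errors. The lines of the 3 EGR genes cross 0 between 2 h and 4 h, from 2.29 to -2.58 for Egr3, while the lowest value of an NR4A gene is 2.97. The 2 h value of Egr2 (0.46) was not called.

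CM without inhibitors raised the NR4A genes, Ier2, Ier3 and Myc over DMEM and lowered Egr1 and Egr3. Of the 10 members 6 were called higher and 2 lower, where 20.9% of all genes were called higher and 24.1% lower, and the median of the members was 1.87. Nr4a3 was higher by 6.35 (standard error 0.45, adjusted p = 7.0e-08) and Ier3 by 5.54 (standard error 0.50, adjusted p = 6.5e-07). The changes of Nr4a1 (3.10, adjusted p = 9.2e-05), Nr4a2 (2.87, adjusted p = 4.8e-05), Ier2 (2.21, adjusted p = 9.7e-07) and Myc (1.54, adjusted p = 1.1e-04) followed. DMEM has 2 samples, and without DMEM replicate 1 the values were 7.56 for Nr4a3, 3.85 for Nr4a1 and 3.63 for Nr4a2. Egr1 changed by -0.76 (standard error 0.23, adjusted p = 0.01) and Egr3 by -1.29 (standard error 0.39, adjusted p = 0.011). Neither call held without 1 of the DMEM samples, with an adjusted p of 0.064 for Egr1 without DMEM replicate 2 and 0.065 for Egr3 without DMEM replicate 1. Egr2 had -0.41 (adjusted p = 0.094), and was called without CM replicate 1 at -0.54 (adjusted p = 0.047) and in a model of only these 2 groups with the replicate block at -0.55 (adjusted p = 0.02). Ier5 had 0.12 (adjusted p = 0.38). The same scaling shifted the median gene by 0.31 here, and under total-count scaling Egr2 was called at -0.71 (adjusted p = 0.012) and Ier5 had -0.19.

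In CM + Rux 4 h against CM 0 members were called higher and 0 lower, where 1.2% and 2.13% of all genes were. At an unadjusted p below 0.05 there were 3 (Egr1, Egr3 and Nr4a3), and DESeq2 called 2. Egr1 differed by -0.76 (standard error 0.22, adjusted p = 0.076) and Nr4a3 by 0.74 (standard error 0.23, adjusted p = 0.096). Samples with the same replicate number deviated together in all groups, and with the replicate number as a block both were called, Egr1 with -0.73 (adjusted p = 0.0041) and Nr4a3 with 0.75 (adjusted p = 0.004). Nr4a3 was also called without CM replicate 2, at 1.0 (adjusted p = 0.046). Egr3 had -1.16 (standard error 0.43, adjusted p = 0.18), from 11 to 38 fragments per sample in CM and 6 to 25 with ruxolitinib, and -1.80 (adjusted p = 0.059) without CM + Rux 4 h replicate 2. Nr4a2 had 0.60 (adjusted p = 0.39), with no overlap of the samples, and was called in a model of only these 2 groups with the block (0.60, adjusted p = 5.1e-04), though not with the block in the model of all groups. The remaining 6 members lay between -0.31 for Ier3 and 0.12 for Nr4a1.

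In DMEM, ruxolitinib gave 0 calls in either direction among the members, where 0% of all genes were called higher and 0.97% lower. No member had an unadjusted p below 0.05 and DESeq2 called 0. The log2 fold changes ran from -0.18 for Ier3 to 0.36 for Myc. In the interaction of medium and ruxolitinib, 0 members were called, where 0.234% of all genes were called higher and 0.178% lower in CM. Egr1 (-0.86, unadjusted p = 0.017, adjusted p = 0.35) and Egr3 (-1.29, unadjusted p = 0.039, adjusted p = 0.5) were the 2 members below an unadjusted p of 0.05, and DESeq2 called 0.

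Adding IKK-16 to CM + Rux lowered Nr4a1, Nr4a3 and Ier2. Of the 10 members 0 were called higher and 3 lower, where 4.07% of all genes were called higher and 3.66% lower, and the median of the members was -0.53. Nr4a1 changed by -1.76 (standard error 0.38, adjusted p = 0.008), a 3.39-fold lower level. Nr4a3 had -1.65 (standard error 0.24, adjusted p = 6.5e-04) and Ier2 -1.26 (standard error 0.17, adjusted p = 5.1e-04). In all 3 genes each IKK-16 sample lay below each CM + Rux 4 h sample. Ier3 had -0.72 (standard error 0.34, adjusted p = 0.18) with overlapping samples. With the replicate number as a block Ier3 was called at -0.75 (adjusted p = 0.027), as it was without CM + Rux + IKK-16 replicate 2 at -1.24 (adjusted p = 0.019). That was the only 1 of 6 omissions of a sample to give a call, and over these omissions Ier3 ranged from -1.24 to -0.37. Nr4a2 had -0.56 (adjusted p = 0.23), or -0.54 with a call (adjusted p = 2.2e-04) in a model of only these 2 groups with the block. The EGR genes were not called, with Egr3 at -0.50 (adjusted p = 0.55) and Egr1 at -0.21 (adjusted p = 0.6). Egr2, Ier5 and Myc lay between -0.08 and 0.07. Of the 2 members with a κB site in their promoters, Nr4a1 was called lower and Ier3 was not in the main model. Nr4a3, called lower too, held no κB match in its window. Ier2, also called lower, had no matched promoter and was not scanned. A link between these sites and the response to IKK-16 was not tested.

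**Figure D3:**
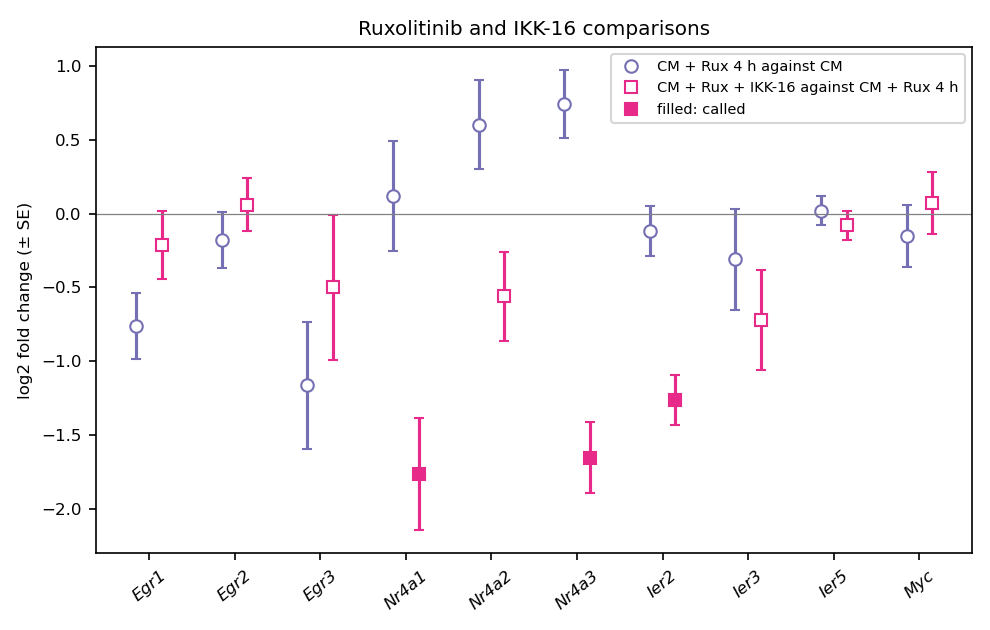
Log2 fold change with its standard error (y axis) of the 10 members (x axis) for CM + Rux 4 h against CM (circles) and CM + Rux + IKK-16 against CM + Rux 4 h (squares). Filled symbols passed both thresholds, which holds for Nr4a1, Nr4a3 and Ier2 with IKK-16 and for no member with ruxolitinib.

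A list of 47 other immediate-early genes, of which 44 were tested, held more genes raised than lowered by CM and similar numbers in both directions between the times. In CM against DMEM 29 were called higher and 3 lower, where 20.9% and 24.1% of all genes were, and the median was 1.65. Ptgs2, the gene of cyclooxygenase-2, rose most (8.65, adjusted p = 6.6e-09), followed by the chemokine gene Cxcl1 (6.62), while Klf2 (-1.95) and Plk2 (-1.71) fell most. At 2 h against 4 h, 8 were called higher and 9 lower, where 12.6% and 10.7% of all genes were, and the median was -0.08. Fosb was higher at 2 h by 3.85 (standard error 0.43, adjusted p = 1.8e-05), with 37.2 ± 18.1 CPM (SD, n = 2) against 2.47 ± 1.31 CPM (SD, n = 3), and Klf2 by 1.67. Fos was lower at 2 h at -1.70 (standard error 0.41, adjusted p = 0.0048), with 121 ± 89.6 CPM (SD, n = 2) against 394 ± 114 CPM (SD, n = 3), and Atf3 at -1.37. The AP-1 genes Fosb and Fos thus differed between the times in opposite directions. Jun, picked out after its values were seen, was lower at 2 h (-1.26, adjusted p = 6.2e-05), where the EGR genes were higher.

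**Figure D4:**
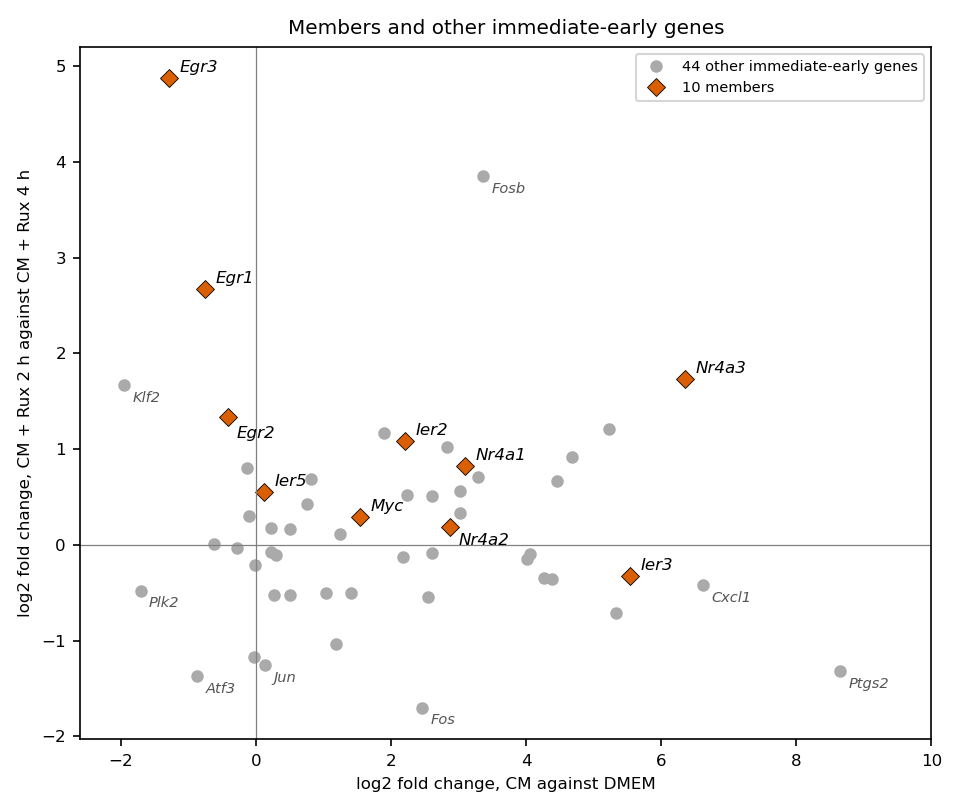
Log2 fold change in CM against DMEM (x axis) and in CM + Rux 2 h against CM + Rux 4 h (y axis), which share no samples, for the 10 members (diamonds) and the 44 other immediate-early genes tested (circles). Egr1, Egr2 and Egr3 lie at upper left, below 0 in CM and at 1.33 or more between the times, while Ier3 lies at lower right beside Cxcl1.

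When IKK-16 was added, 4 genes of this list were called higher and 9 lower, and the median was -0.21. Of all genes 4.07% were called higher and 3.66% lower. Dusp2, a phosphatase of MAP kinases, fell most (-2.05, adjusted p = 0.0035), followed by Ptgs2 (-1.59, adjusted p = 0.0024), and Sgk1 (0.76) and Mafk (0.65) rose most. Ruxolitinib in CM gave 0 higher and 2 lower calls (Dusp6 and Zfp36l1), where 1.2% of all genes were called higher and 2.13% lower. Against DMEM + Rux the counts were 27 higher and 6 lower at 2 h, where 18.4% and 21.7% of all genes were called. At 4 h they were 29 and 6, where 22.3% and 25% of all genes were called. For ruxolitinib in DMEM edgeR called 0 (3 at an unadjusted p below 0.05, 0 with DESeq2), and for the interaction 0 (7 and 1). Of all genes at most 0.97% were called in either direction in these 2 comparisons.

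Genes that control the members were read from a list of 19 regulators. These include SRF, CREB, their cofactors, the NAB corepressors and MAP kinases. In CM against DMEM 9 were called higher and 1 lower, where 20.9% and 24.1% of all genes were, with a median of 0.50. Crem, a relative of CREB whose short form represses cAMP-driven genes, rose by 3.0 (adjusted p = 1.4e-04) and Elk3 by 1.90, while Crtc1, a coactivator of CREB, fell (-0.51). At 2 h against 4 h, 2 were higher, Mrtfb (0.77) and Creb1 (0.60), and 5 were lower, with Crtc1 (-0.74) and Map2k1 (-0.72) the lowest. Of all genes 12.6% were called higher and 10.7% lower between these times. Nab2 and Srf, picked out after their values were seen, were called lower at 2 h than at 4 h. Nab2, an EGR corepressor, had 68.7 ± 10.6 CPM in DMEM (SD, n = 2) and 148 ± 5.17 CPM in CM (SD, n = 3). It had 90.8 ± 4.8 CPM at 2 h (SD, n = 2) and 135 ± 9.57 CPM at 4 h (SD, n = 3). Its log2 fold change between the times was -0.57 (adjusted p = 6.2e-04). Nab1, the other NAB corepressor, did not differ between the times (-0.02, adjusted p = 0.87). It had 172 ± 3.51 CPM at 2 h (SD, n = 2) and 174 ± 1.38 CPM at 4 h (SD, n = 3). Srf had -0.50 (adjusted p = 0.009). With IKK-16 only Mrtfb was called (0.68, adjusted p = 0.0012), where 4.07% of all genes were called higher and 3.66% lower. With ruxolitinib in CM edgeR called 0 of the 19 (6 at an unadjusted p below 0.05, 0 with DESeq2). The shares of all genes called there were 1.2% and 2.13%. It called 0 in DMEM (1 and 0) and 0 for the interaction (2 and 0), where at most 0.97% of all genes were called in either direction. Against DMEM + Rux 7 were higher and 1 lower at 2 h, where 18.4% and 21.7% of all genes were called. At 4 h 10 were higher and 0 lower, where 22.3% and 25% of all genes were called.

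Of 14 partners and rivals of MYC 11 were tested, and in CM against DMEM 2 were called higher (Mxi1 3.16 and Mlx 0.61) and 3 lower, shares near the 20.9% and 24.1% of all genes. Mxd4 (-3.23, adjusted p = 4.2e-09) and Mnt (-0.73) were the lowest. The MXD proteins and MNT compete with MYC for MAX. Mxd4 had 134 CPM in DMEM, 14.4 CPM in CM, 59.5 CPM at 2 h and 16.8 CPM at 4 h (means), higher at 2 h by 1.83 (adjusted p = 2.3e-06), as was Mxd1 (0.62), while Mnt (-1.16) and Mlx (-0.78) were lower. With IKK-16 Mycl fell (-1.98, adjusted p = 0.0037). Of 18 MYC targets 6 were called higher and 2 lower in CM, where 20.9% and 24.1% of all genes were, and the median was 0.29. Ccnd2 (3.58) and Odc1 (2.75) rose most, and Tfrc and Shmt2 fell (-0.93 each). Between 2 h and 4 h only Ldha was called of the targets (-1.31), where 12.6% of all genes were called higher and 10.7% lower. With IKK-16 edgeR called 0 targets (2 at an unadjusted p below 0.05, 0 with DESeq2), where 4.07% and 3.66% of all genes were called. With ruxolitinib in CM edgeR called 0 partners (3 at an unadjusted p below 0.05, 2 with DESeq2) and 0 targets (2 and 0). The shares of all genes called there were 1.2% and 2.13%. In DMEM edgeR called 0 partners (1 and 0) and 0 targets (0 and 0). For the interaction it called 0 partners (2 and 1) and 0 targets (0 and 0). In these 2 comparisons at most 0.97% of all genes were called in either direction. Against DMEM + Rux 3 partners were higher and 3 lower at 2 h, and 4 and 2 at 4 h. Of the targets 5 were higher and 2 lower at 2 h, and 4 and 2 at 4 h. The shares of all genes called higher and lower were 18.4% and 21.7% at 2 h and 22.3% and 25% at 4 h.

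The genes whose profile over the 6 group means was most like that of a member were sought among the 11568 genes whose group means averaged 1 CPM or more. Likeness was the root mean square difference of centred log2(CPM + 0.5) values, a description over 6 groups with no test. For Egr2 the nearest were Naaa and Rnase4 (0.06 each) and Tbxas1 (0.09), for Egr1 Clec10a (0.27), Nxpe5 (0.28) and Nav2 (0.29), and for Egr3 Gpr183 (0.47), Egr1 (0.51) and Hdac9 (0.53). Egr3 was thus the only member with another member among its 3 nearest. The nearest to Nr4a1 were Dusp1 (0.32), Cd69 (0.34) and Il4i1 (0.35), those to Nr4a2 Lpar1 (0.11), B3gnt5 (0.13) and Sh3d21 (0.13), and those to Nr4a3 Clcf1 (0.45), Il10 (0.55) and Dusp5 (0.58). Ier2 was nearest to Stat5a (0.10), Noct (0.18) and Kctd12 (0.26). Stat5a had 30.1 CPM in DMEM, 119.9 in CM, 277 at 2 h, 119 at 4 h and 47.8 with IKK-16 (means). The nearest to Ier3 were Bcl2a1a (0.13), Atp2b4 (0.24) and Mmp14 (0.36), to Ier5 Bcl10 and Simc1 (0.04 each) and Atxn3 (0.05), and to Myc Arhgap28 (0.08), Cox17 (0.11) and Slc45a3 (0.12). Bcl2a1a has near-identical copies, so its counts are uncertain. The added 0.5 CPM shrinks the differences of genes with low levels, so their likeness is less certain. Such genes were Arhgap28 (means of 0.349 CPM in DMEM and 1.97 CPM in CM) and Sh3d21 (0.206 and 3.54 CPM).

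The EGR and IER genes and Myc have few exons, and the NR4A genes do not. The number of exons was 1 for Ier2 and Ier5, 2 for Ier3 and each EGR gene, 3 for Myc and 8 for each NR4A gene, against a median of 9 among 11186 coding genes tested, of which 13.8% had 3 or fewer. From first to last base the EGR and IER genes and Myc span 1240 to 6714 bases and the NR4A genes 17174 to 41295, where the median was 23987. Copies of the AU-rich pentamer ATTTA in the 3′ untranslated region, a feature of short-lived transcripts, numbered 7 in Egr3, 5 in Nr4a3 and Ier3, 3 in Egr2, Nr4a1 and Nr4a2, 2 in Egr1, Ier5 and Myc and 0 in Ier2. Of 11150 genes with such a region 70.7% held at least 1 and 30.4% held at least 4, with a median of 2. For each gene the transcript with the longest such region was used. The regions differ in length, with 2645 bases in Egr3, 3095 in Nr4a3 and 613 in Ier3, where the median was 1195. The copies were not scaled to length. The longer AU-rich nonamer TTATTTATT was found in 0 members, where 8.26% of these genes held it. No member shares exonic bases with another gene on either strand.

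On GRCm38, Egr1 (ENSMUSG00000038418) lies on chromosome 18 from 34859823 to 34864984, Egr2 (ENSMUSG00000037868) on chromosome 10 from 67535475 to 67542188 and Egr3 (ENSMUSG00000033730) on chromosome 14 from 70077203 to 70082614. Nr4a1 (ENSMUSG00000023034) lies on chromosome 15 from 101254269 to 101274795, Nr4a2 (ENSMUSG00000026826) on chromosome 2 from 57106830 to 57124003 and Nr4a3 (ENSMUSG00000028341) on chromosome 4 from 48045153 to 48086447. Ier2 (ENSMUSG00000053560) lies on chromosome 8 from 84661331 to 84662854, Ier3 (ENSMUSG00000003541) on chromosome 17 from 35821684 to 35822923 and Ier5 (ENSMUSG00000056708) on chromosome 1 from 155096361 to 155099636. Myc (ENSMUSG00000022346) lies on chromosome 15 from 61985391 to 61990374. Nr4a2, Ier2 and Ier5 are on the minus strand, and counts cover all exons of each gene.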

How the data were processed

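RNA of 16 BMDM samples was sequenced from stranded paired-end libraries. Reads were trimmed with Trimmomatic 0.33, aligned to GRCm38 with HISAT2 2.1.0 and counted with featureCounts 1.6.2 at a mapping quality of at least 10, and the authors deposited raw counts per gene by Ensembl identifier. Depth was 18449388 to 46215853 counts per sample, and replicates differed by more than sampling noise. The authors' annotation was Ensembl release 100; gene positions and exonic lengths were those of the deposited table, while symbols, exon numbers and untranslated regions were taken here from GENCODE M21 of the same build, and 346 of 55487 identifiers had no symbol (at most 0.0459% of a sample's counts).

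Counts were scaled by relative log expression in edgeR 4.0.16 (limma 3.58.1, R 4.3.3). A gene entered the test when 2 or more samples exceeded 1 CPM, as 12372 did. All 16 samples entered 1 quasi-likelihood model of 6 groups, with Benjamini-Hochberg adjustment over all genes tested and calls at an adjusted p below 0.05 and a log2 fold change beyond 0.5. The code was tested on simulated data. Tables and figures were made in Python 3.11.15 (numpy 2.4.6, pandas 2.3.3, matplotlib 3.10.9). CPM values use the scaled totals, and CPM per kb divides them by the exonic length of the gene.

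All 10 members were named in every comparison. From each further list the counts called were given, with the 2 called genes of largest positive and the 2 of largest negative log2 fold change in CM against DMEM, 2 h against 4 h and IKK-16. The members and lists were chosen with earlier results of these data known, so patterns already seen there are no independent support. Groups came from the labels. Replicate numbers paired the samples. Deviations from group means correlated at 0.161 to 0.717 in 22 pairs of samples with the same number. In 44 pairs with different numbers they correlated at -0.471 to 0.137. Deviations within a group sum to 0, so the values for different numbers follow in part from the others and are no separate support. The alternatives were TMM or total-count scaling, no filter on low counts, DESeq2 1.42.0, the replicate number as a block, models of only the groups compared, omission of each sample, and calls without a limit on fold change.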

Additional observations from a re-analysis of the deposited data

How the results depend on the processing

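Alternatives were first counted in the 6 comparisons other than ruxolitinib in DMEM and the interaction. There, 763 alternative log2 fold changes of the members kept direction and call, 22 became called and 5 lost their call. Another 16 changed sign, all 16 uncalled. The counts in this section include the values without a limit on fold change. These repeat the main fit, so only their call could change and not their direction. The number of members called with ruxolitinib in CM was 0, but 2 without the filter on low counts, 2 with DESeq2, 2 with the replicate block and 3 with only the groups compared and the block (Egr1, Nr4a2 and Nr4a3), and 0 to 1 with a sample left out. For IKK-16 the number rose from 3 to 5 with only the groups compared and the block, which added Ier3 (-0.76) and Nr4a2 (-0.54). Ier3 was also called there without the filter (adjusted p = 0.022). The replicate block alone changed no call of a member other than those of Egr1, Nr4a3 and Ier3 given above. The cause was not tested.

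The sign changes under total-count scaling were all of Ier5, with -0.19 in CM against DMEM, 0.00 for IKK-16 and -0.11 for CM + Rux 4 h against DMEM + Rux. With a sample left out, Ier5 ranged from -0.03 to 0.28 in CM against DMEM, from -0.07 to 0.08 with ruxolitinib in CM and from -0.15 to 0.01 with IKK-16, and Myc from -0.25 to 0.01 with ruxolitinib and from -0.09 to 0.29 with IKK-16. With IKK-16 Egr2 ranged from -0.04 to 0.20 and Egr3 from -0.83 to 0.13. Between 2 h and 4 h Nr4a2 ranged from -0.39 to 0.57 and Ier3 from -0.79 to 0.03. Of the 128 alternative values for ruxolitinib in DMEM 21 changed sign and 0 the call, and of 190 for the difference of the effects 12 and 0. The groups of DMEM and CM + Rux 2 h have 2 samples each, so leaving 1 out assumes that the other varies like the rest, and the low counts of Egr3 and Nr4a3 limit their precision.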

Other observations

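The FOS and JUN genes of the AP-1 family, picked out after their values were seen, differed among themselves between 2 h and 4 h. Fosb was called higher at 2 h (3.85), as the EGR genes were, Fos (-1.70) and Jun (-1.26) were called lower, and Junb (0.52, adjusted p = 0.084), Jund (0.43, adjusted p = 0.039, within the limit on fold change), Fosl2 (-0.35, adjusted p = 0.28) and Fosl1 (-0.15, adjusted p = 0.8) were not called. Fos had 80 ± 21.9 CPM in DMEM (SD, n = 2), 439.9 ± 68.7 CPM in CM and 369.8 ± 113 CPM with IKK-16 (SD, n = 3 each), while Egr1 and Egr3 were lower in CM than in DMEM. Jun had 88.7 ± 4.45 CPM in DMEM (SD, n = 2) and 97.3 ± 4.99 CPM in CM (SD, n = 3), fell to 36.7 ± 14.6 CPM in CM + Rux 2 h (SD, n = 2) and was called higher with IKK-16 (129 ± 5.44 CPM, SD, n = 3) than in CM + Rux 4 h (88.8 ± 5.57 CPM, SD, n = 3), with a log2 fold change of 0.54 (adjusted p = 0.019). Fosb stayed at 0.176 ± 0.0402 CPM in DMEM (SD, n = 2) and was below 4 CPM in each group other than CM + Rux 2 h. Dusp1, the gene nearest to Nr4a1, had a log2 fold change of -1.02 with IKK-16 that did not pass (adjusted p = 0.052). No cause of these differences was tested.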
